A study of Mus musculus with 11 samples.

Results

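The 10 genes described here are the transcription factors that are usually named as the core regulators of heart formation: Nkx2-5, Gata4, Gata5, Gata6, Hand1, Hand2, Mef2c, Tbx5, Tbx20 and Isl1. They were chosen by name, and all 10 of them were found among the 55487 gene identifiers of the count files. Hearts were taken for RNA sequencing from 5 Pde2A-/- embryos (the knockout, replicates A, B, D, 14 and 15) and 6 Pde2A+/+ embryos (the wild type, replicates 6, 7, 8, 11, E and H) at E14.5. All embryos carried the B6; 129P2 background of the tm1Dgen line, came from crosses of heterozygous parents, were untreated and were of both sexes, with the sex of single hearts not given. The deletion is in the whole embryo, which limits the hearts as a model of loss in cardiac cells alone. Pde2A is a phosphodiesterase that breaks down cAMP and cGMP, and the comparison asked how its loss changed the transcriptome of the embryonic heart. Each library was 1 heart. The labels name no litter or batch, and p-values measure the spread between these hearts.

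These factors bind DNA next to each other and activate shared cardiac genes. NKX2-5 is a homeodomain protein, GATA4, GATA5 and GATA6 are zinc-finger proteins, HAND1 and HAND2 are basic helix-loop-helix proteins, MEF2C is a MADS-box protein, TBX5 and TBX20 are T-box proteins, and ISL1 is a LIM-homeodomain protein. Loss of several of them disturbs heart formation in the embryo, and human mutations in NKX2-5, GATA4 or TBX5 cause septal defects. Some of them mark regions of the heart: HAND1 the outer curvature of the left ventricle, HAND2 the right ventricle, outflow tract, endocardium and epicardium, TBX5 the atria and left ventricle, and ISL1 the progenitors of the second heart field, the sinoatrial node and cardiac ganglia.

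Of the 10 factors, Nkx2-5 was lower in Pde2A-/- hearts and the other 9 did not pass the test. A gene passed when its p in edgeR's quasi-likelihood test, adjusted by Benjamini-Hochberg over the 24177 genes with 10 or more counts in all, was under 0.05. By that rule 1 member was lower and 0 were higher, while 5.67% of all genes tested were lower and 8.93% were higher, so that 1 of 10 members passed against a background of 14.6%. With DESeq2 in place of edgeR these counts were the same, and 2 members, Nkx2-5 and Hand1, had an unadjusted p under 0.05 in edgeR's test. CPM are counts scaled to the size of the library. No member changed by a factor of 2 or more, as 2.59% of all genes did. For 1 of the 10 members, and for 8.49% of all genes, no knockout heart lay within the wild-type range or the reverse. Log2 fold changes (Pde2A-/- over Pde2A+/+) ran from −0.45 to 0.25, with 6 below and 4 above 0 and a median of −0.041, beside −0.023 over all genes. The counts for the 10 members stayed at 0 higher and 1 lower without the wild-type hearts 7 and 11.

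**Figure D1:**
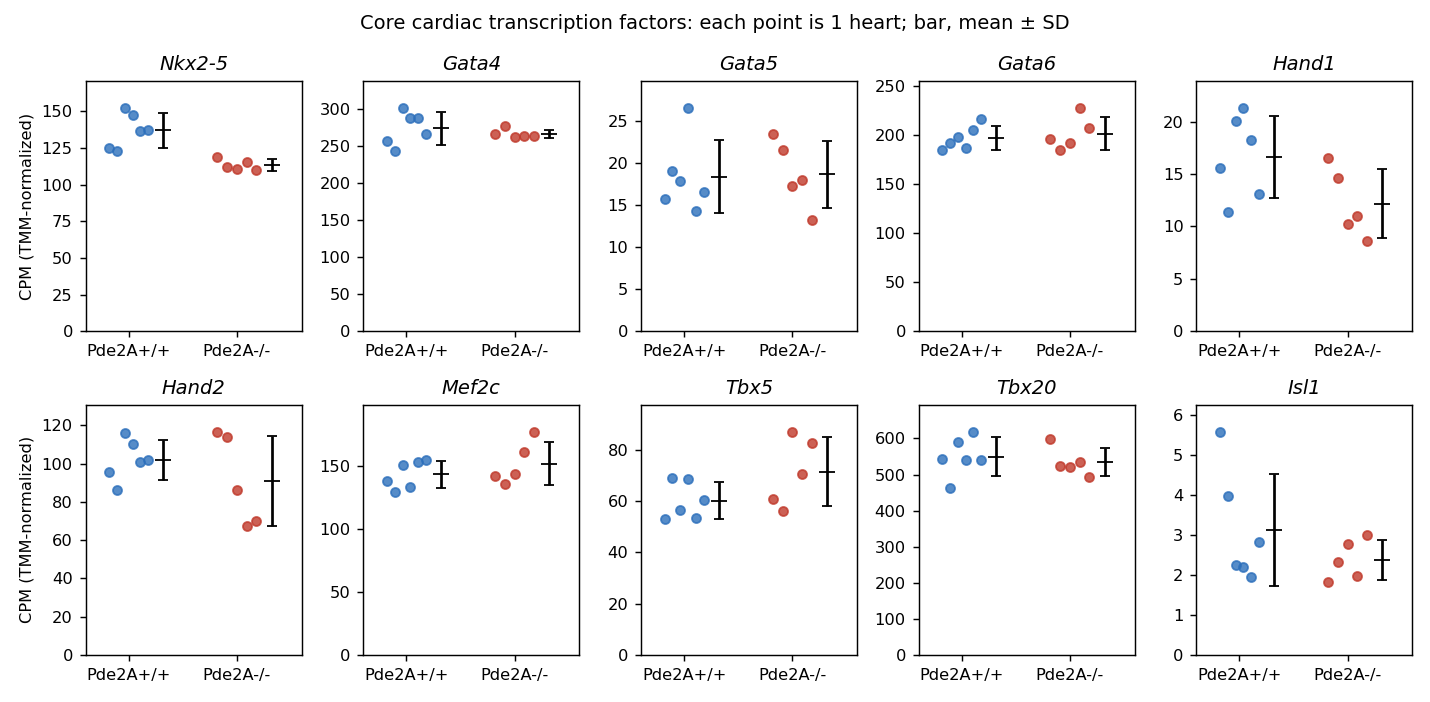
Level of each of the 10 transcription factors in each heart, in TMM-normalized CPM on axes that start at 0; each point is 1 heart (6 Pde2A+/+ in blue, 5 Pde2A-/- in red) and the bar gives the mean ± SD. For Nkx2-5 the 5 knockout hearts lie between 110.0 and 119 CPM and below all 6 wild-type hearts, which start at 123 CPM; in the other panels the genotypes overlap.

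**Figure D2:**
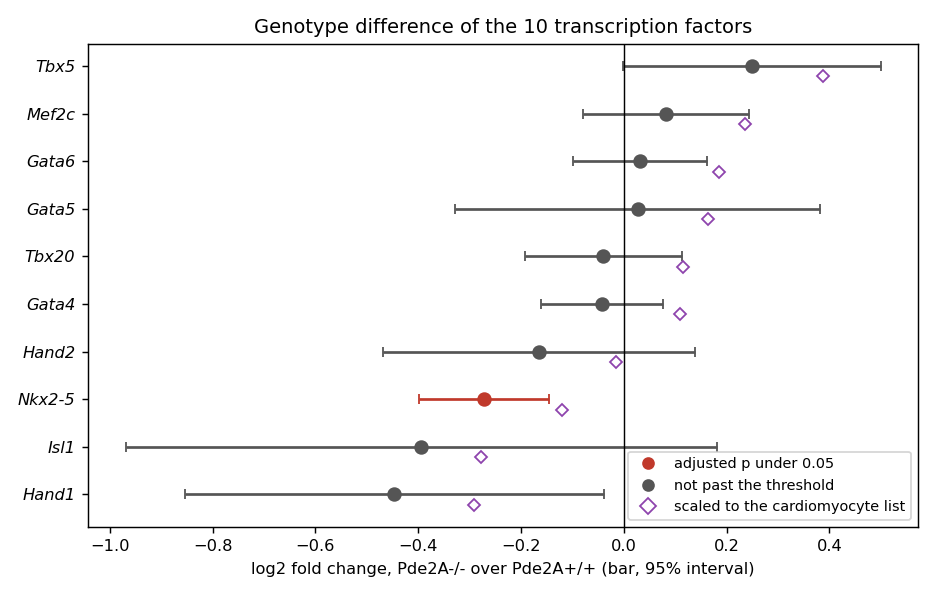
Log2 fold change of each factor with its 95% interval (filled circles), and the value after scaling the libraries to the cardiomyocyte marker list (open diamonds). The interval of Nkx2-5 runs from −0.40 to −0.15, and its value moves to −0.12 with that scaling, which moves all 10 values upward.

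A heart had 35865537 to 42835382 reads on the strands of annotated genes, and by a two-sided exact permutation test the totals gave p = 0.87 between genotypes. Pde2a itself had 0 to 2 counts per library and 7 in all, in wild-type as in knockout hearts, too few to check the labels of the hearts. Why it was this low in wild-type hearts was not tested, and the counts are no measure of its expression there. The defining markers of cardiomyocytes were present in every heart, with Myh7 the highest. In wild-type heart 7 the 6 thymus markers summed to 58.7 CPM, against 0.0746 to 0.224 in all other hearts. The 8 lung and foregut markers summed to 130 CPM in wild-type heart 7 and 82.0 in wild-type heart 11, against 6.76 to 27.4 in the others. In heart 7 this sum was almost wholly Krt8 (89.2 CPM), Cdh1 (25.0) and Epcam (15.4), with Nkx2-1 and Foxa2 at 0. Heart 11 also had Nkx2-1 at 5.22, Shh at 4.27 and Foxa2 at 4.05 CPM. The list thus does not mark the same tissue in these 2 hearts. Calls that were lost without these 2 hearts are given with the value without them. The 10 macrophage markers summed to 233 to 298 CPM in knockout and 114 to 178 in wild-type hearts, with 9 of them higher by the test. The 10 erythroid markers summed to 878 to 1410 and 560 to 858 CPM, with 8 higher. Of the 30 cardiomyocyte markers 10 were lower and 1 was higher, and their sums were 54156 to 60893 CPM in knockout and 54477 to 72070 in wild-type hearts. The sums of 10 endothelial and endocardial markers did not overlap, with 1396 to 1553 CPM in knockout and 1146 to 1362 in wild-type hearts, and 4 of those markers were higher and 1 was lower. Among the other lists, 4 of 10 fibroblast and cushion markers were higher, 2 of 8 smooth muscle and pericyte markers lower, 2 of 9 sinus node markers lower, 2 of 9 atrial markers higher and 1 lower, and 1 of 8 epicardial markers higher and 1 lower. None of the 7 ventricular, 11 neuronal and glial, 9 liver, 8 lung, 6 thymus and 8 skeletal muscle markers passed. The skeletal muscle marker Myh3 was at 71.0 and 86.7 CPM in knockout hearts B and D, against 0.391 to 16.7 CPM in all other hearts. Myog was also highest in B and D, at 4.08 and 2.41 CPM, against 0.705 to 2.20 in the others. No marker was at 0 in all hearts.

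Nkx2-5 (ENSMUSG00000015579, chr17:26838664-26845009, minus strand, GRCm38) encodes the homeodomain factor that is switched on in cardiac progenitors and kept on in heart muscle. Its levels were 119, 112, 116, 111 and 110.0 CPM in knockout hearts A, B, D, 14 and 15. In wild-type hearts the lowest was 123, the median 137 and the highest 152 CPM. Every knockout heart was below every wild-type heart, and the wild-type hearts nearest to the knockout range were 11 and 7. The means were 114 ± 3.86 (SD, n = 5) and 137 ± 11.7 CPM (SD, n = 6), so that the level fell by 17.2% (log2 fold change −0.27, SE 0.059, 95% interval −0.40 to −0.15, adjusted p = 0.0103, edgeR, lower in 5 of 5 hearts). Without wild-type hearts 7 and 11 the log2 fold change was −0.34 (edgeR, adjusted p = 0.0028). The replicate names are letters or numbers. Since no knockout heart reached the wild-type range, the knockout values had to lie below the wild-type values in both sets, which is no separate check.

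Beside this fall, the cardiomyocyte markers moved the same way, as given above. In bulk tissue fewer cells of a type and less RNA per cell cannot be told apart. When the libraries were scaled so that the mean log2 count of the 30 cardiomyocyte markers was equal in all hearts, Nkx2-5 no longer passed, with a log2 fold change of −0.12 and an adjusted p of 0.28 in edgeR's test. That scaling moved the median of all genes from −0.023 to 0.12 and the genes called from 2160 higher and 1372 lower to 3853 higher and 167 lower. Under it 1 member was called higher, Mef2c, and none was lower.

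The ratio of Nkx2-5 to each of the other factors within a heart was computed after the values had been seen. It had a lower mean in knockout hearts for 8 of 9 factors, and for 7 on the log2 scale. All 9 ratios share the values of Nkx2-5, so they are not separate results. For 3 factors the ratio did not overlap between genotypes. Nkx2-5 over Gata4 was 0.406 to 0.447 in knockout and 0.472 to 0.516 in wild-type hearts. Over Gata6 it was 0.508 to 0.610 and 0.637 to 0.794, and over Mef2c 0.621 to 0.842 and 0.890 to 1.11. Of 14023 genes at a mean of 1 CPM or more, 30.7% gave a ratio that was lower in every knockout heart than in any wild-type heart, a share near that of the members.

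The windows that end at the RefSeq start sites of 3 members are shown, the factor that fell and 2 others, Hand2 and Gata5. The coefficients of variation of Hand2 and Gata5 were 25.8% and 21.3% in knockout hearts and 10.3% and 23.7% in wild-type hearts. The windows and the motifs were chosen after the values had been seen. Capitals mark GATA sites (the spelling AGATAA and likewise the spelling AGATAG, or the spelling TGATAA and likewise the spelling TGATAG), E-boxes (CANNTG, the sequence bound by basic helix-loop-helix factors), NK2 sites (AAGTG) and the core of the cAMP response element (TGACG), read on both strands in windows of 250 bases. The sequences and starts are from RefSeq on GRCm38.p6, and bases in annotated exons of the gene are left out.

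Nkx2-5, chr17:26841609-26841815, minus strand: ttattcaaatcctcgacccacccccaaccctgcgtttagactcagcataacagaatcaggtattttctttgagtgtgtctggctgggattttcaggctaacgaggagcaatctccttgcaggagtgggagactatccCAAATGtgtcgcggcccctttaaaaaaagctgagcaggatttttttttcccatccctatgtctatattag

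Hand2, chr8:57320733-57320982, plus strand: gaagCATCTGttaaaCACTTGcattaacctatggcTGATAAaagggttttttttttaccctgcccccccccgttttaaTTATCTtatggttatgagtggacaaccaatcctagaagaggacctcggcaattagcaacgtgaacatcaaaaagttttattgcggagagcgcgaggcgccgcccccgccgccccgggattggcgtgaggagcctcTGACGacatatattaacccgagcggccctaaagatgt

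Gata5, chr2:180334700-180334929, minus strand: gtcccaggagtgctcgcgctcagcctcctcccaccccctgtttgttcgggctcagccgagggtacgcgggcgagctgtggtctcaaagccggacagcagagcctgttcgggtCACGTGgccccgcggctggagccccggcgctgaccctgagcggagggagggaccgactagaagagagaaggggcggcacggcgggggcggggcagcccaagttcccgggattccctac

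The Nkx2-5 stretch lies in the intron of a longer annotated transcript, and the 43 bases that follow it, left out here, hold 1 TGACG. Hand2 has 2 GATA sites, 2 E-boxes, 1 of which overlaps its NK2 site, and 1 TGACG, and Gata5 has 1 E-box. Of 32851 RefSeq promoters, 26.5% hold a GATA site in such a window, 66.2% an E-box, 40.7% an NK2 site and 17.8% a TGACG. No member window held the full cAMP response element TGACGTCA, which 1.55% of promoters hold, or the T-box letters GGTGTGA, which 3.33% hold. Windows were found for 6 of the 10 members. Those of Isl1, Mef2c and Tbx20 are not shown, and Gata4, Gata6, Hand1 and Tbx5 had no entry.

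Gata4 (ENSMUSG00000021944, chr14:63198922-63271692, minus strand) encodes a zinc-finger factor that binds cardiac promoters together with NKX2-5 and TBX5. It was at 262 to 277 CPM in knockout hearts and 244 to 302 CPM in wild-type hearts. All knockout values lay within the wild-type range, and their spread was the smallest of the 10 factors (coefficient of variation 2.23%, against 8.09% in wild-type hearts). The log2 fold change was −0.043 with a 95% interval of −0.16 to 0.077 (edgeR, adjusted p = 0.66). Gata6 (ENSMUSG00000005836, chr18:11052064-11085635, plus strand), its paralog in myocardium, epicardium and smooth muscle, was at 185 to 228 CPM in knockout and 185 to 216 CPM in wild-type hearts. Its log2 fold change was 0.032 with an interval of −0.098 to 0.16 (edgeR, adjusted p = 0.78). In percent of the wild-type level, the interval of Gata4 ran from −10.6% to 5.49% and that of Gata6 from −6.6% to 11.9%.

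Gata5 (ENSMUSG00000015627, chr2:180325133-180334699, minus strand) is the GATA factor of endocardium and epicardium and was lower in level per kilobase of exon than Gata4 and Gata6. Its levels were 23.4, 21.5, 17.9, 17.3 and 13.2 CPM in knockout hearts A, B, D, 14 and 15. In wild-type hearts the lowest was 14.3, the median 17.2 and the highest 26.5 CPM. The genotypes overlapped over nearly their whole ranges, and hearts A and B were the highest of the knockout hearts. The means were 18.7 ± 3.97 and 18.3 ± 4.34 CPM, and the log2 fold change was 0.027 with a 95% interval of −0.33 to 0.38 (edgeR, adjusted p = 0.93).

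Hand1 (ENSMUSG00000037335, chr11:57828705-57832818, minus strand) was at 16.5, 14.6, 10.99, 10.3 and 8.62 CPM in knockout hearts A, B, D, 14 and 15. In wild-type hearts the lowest was 11.4, the median 16.9 and the highest 21.3 CPM. Hearts D, 14 and 15 lay below all wild-type hearts, and A and B within the wild-type range. The means were 12.2 ± 3.25 and 16.6 ± 3.93 CPM. The log2 fold change was −0.45 (SE 0.19, 95% interval −0.85 to −0.039), and it did not pass after adjustment (edgeR, adjusted p = 0.13). Without knockout heart A it was −0.57 with an adjusted p of 0.048 in edgeR's test, the only one of the 11 fits without 1 heart in which it passed.

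Hand2 (ENSMUSG00000038193, chr8:57320983-57324633, plus strand) was at 117, 114, 67.5, 86.3 and 69.9 CPM in knockout hearts A, B, D, 14 and 15. In wild-type hearts the lowest was 86.4, the median 101 and the highest 116 CPM. Hearts D, 14 and 15 again lay below all wild-type hearts, by a small margin for heart 14, while heart A lay above all of them. The means were 90.8 ± 23.5 and 102 ± 10.5 CPM, with a log2 fold change of −0.16 and a 95% interval of −0.47 to 0.14 (edgeR, adjusted p = 0.47). The coefficient of variation was 25.8% in knockout and 10.3% in wild-type hearts, a ratio of 2.50. A ratio of at least 2 was found in 23.9% of the 14024 genes at a mean of 1 CPM or more, and the coefficient was larger in knockout hearts for 62.4% of those genes and for 5 of the 10 members.

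Hand2 shares its start region with Hand2os1 (ENSMUSG00000100510, also known as upperhand), a long non-coding RNA gene on the other strand. Of the exon bases of Hand2, 19.6% lie opposite exons of Hand2os1. The libraries and the counting kept the strands apart, and counting without strand left 70.9% to 77.4% of the Hand2 counts, since reads on both genes are then dropped. Hand2os1 was at 54.8 ± 5.43 CPM in knockout and 55.3 ± 6.13 CPM in wild-type hearts (log2 fold change −0.013, 95% interval −0.19 to 0.17, edgeR, adjusted p = 0.94). Its ranges were 48.7 to 62.8 and 47.2 to 65.5 CPM, and it did not show the wide knockout spread of Hand2.

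Mef2c (ENSMUSG00000005583, chr13:83504034-83667080, plus strand), which controls muscle structural genes and is also expressed in endothelium, was at 142, 135, 161, 143 and 177 CPM in knockout hearts A, B, D, 14 and 15. In wild-type hearts the lowest was 129.6, the median 145 and the highest 154 CPM. Hearts D and 15 lay above all wild-type hearts and the other 3 within their range. The log2 fold change was 0.083 with a 95% interval of −0.079 to 0.24 (edgeR, adjusted p = 0.51), and 0.24 with an adjusted p of 0.046 after scaling to the cardiomyocyte list.

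Tbx5 (ENSMUSG00000018263, chr5:119832668-119885219, plus strand) was at 60.8, 56.0, 70.6, 87.1 and 82.8 CPM in knockout hearts A, B, D, 14 and 15. In wild-type hearts the lowest was 53.0, the median 58.4 and the highest 69.0 CPM. Hearts D, 14 and 15 lay above all wild-type hearts, and A and B within the wild-type range. The means were 71.5 ± 13.5 and 60.1 ± 7.27 CPM, and the log2 fold change was 0.25 (SE 0.12, 95% interval −0.0020 to 0.50, edgeR, adjusted p = 0.17). With the naming style of the replicates, letter or number, as a covariate it was 0.31 with an adjusted p of 0.047 in edgeR's test.

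Tbx20 (ENSMUSG00000031965, chr9:24718138-24774303, minus strand), a T-box factor of myocardium and endocardium that restrains Tbx2, was at 494 to 598 CPM in knockout and 463 to 619 CPM in wild-type hearts. The knockout range lay inside the wild-type range. The log2 fold change was −0.040 with a 95% interval of −0.19 to 0.11 (edgeR, adjusted p = 0.76).

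Heart by heart, several members shared an order among the knockout hearts. Gata5, Hand1 and Hand2 were highest in hearts A and B, and Mef2c and Tbx5 were lowest in these same hearts. Gata4 was also highest in them, by a small margin (267 and 277 CPM, against 262 to 264 CPM in the others). For Mef2c the margin was small as well, with 142 CPM in heart A and 143 CPM in heart 14. The order of the knockout hearts was noticed after the values had been seen. Of the 15 marker lists, 7 had lower sums in both A and B than in D, 14 and 15, 2 had higher sums, and 6, the cardiomyocyte and atrial lists among them, did not set these hearts apart. The 7 compact ventricular markers summed to 6555 and 6791 CPM in hearts A and B and to 4902 to 5150 CPM in hearts D, 14 and 15, beside 5621 to 8386 CPM in wild-type hearts. The 8 epicardial markers summed to 356 and 409 CPM in A and B and to 521 to 554 CPM in the others. The 10 fibroblast and cushion markers summed to 7660 and 7797 CPM in B and A and to 9583 to 12074 CPM in the others. The 10 endothelial markers summed to 1478 and 1553 CPM in A and B and to 1396 to 1430 CPM in the others. The epicardial and fibroblast lists ranged in wild-type hearts from 288 to 587 and from 6498 to 11435 CPM, so they varied within that genotype as well. Wild-type heart 11, with the lowest compact ventricular sum of its genotype, had the lowest Nkx2-5, Gata4, Hand1, Hand2, Mef2c and Tbx20 and the highest Tbx5 of the 6. The part of tissue make-up in these orders was not tested.

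**Figure D3:**
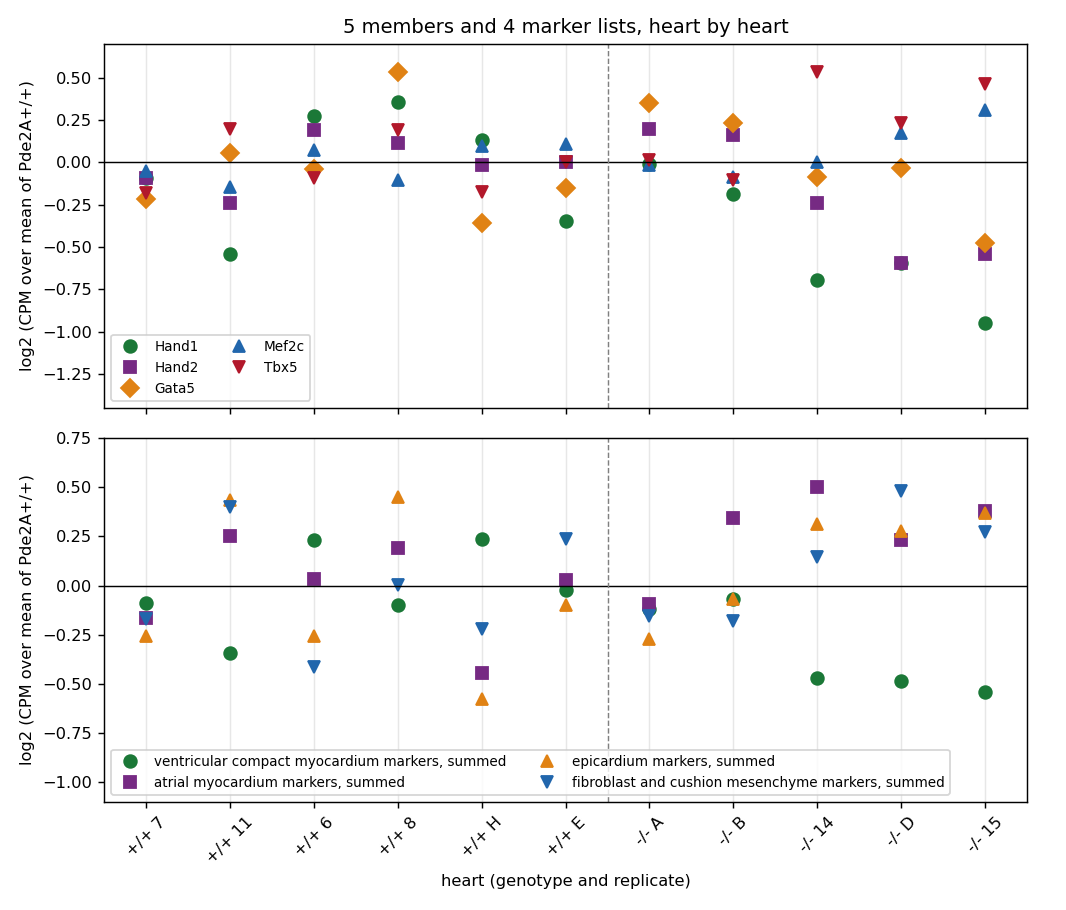
Upper panel, log2 level of 5 factors in each heart relative to the mean CPM of the wild-type hearts; lower panel, the same for the summed markers of 4 regions or layers. In knockout hearts 14, D and 15 Hand1, Hand2 and the compact ventricular markers lie below 0 and Tbx5 and the epicardial markers above it.

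Isl1 (ENSMUSG00000042258, chr13:116298281-116309689, minus strand) was the lowest of the 10 factors, with 70 to 214 counts per heart. Its levels were 1.83, 2.31, 1.97, 2.76 and 3.003 CPM in knockout hearts A, B, D, 14 and 15. In wild-type hearts they were 5.58 in heart 7, 3.97 in heart 11 and 1.94 to 2.81 in the other 4. The 2 highest values thus belonged to the 2 wild-type hearts with the highest sums of the lung and foregut list, and the other 9 hearts overlapped. In heart 7 that sum was almost wholly Krt8, Cdh1 and Epcam, without Nkx2-1 or Foxa2, which heart 11 had. The summed neuronal and glial markers were 25.1 CPM in heart 7 and 30.2 CPM in heart 11, against 12.5 to 22.2 CPM in the others. In heart 7, 13.1 CPM of the sum was Stmn2, and the other 10 markers summed to 11.9 CPM there and 21.1 CPM in heart 11, against 9.54 to 17.5 CPM in the other hearts. The log2 fold change was −0.39 with a 95% interval of −0.97 to 0.18 (edgeR, adjusted p = 0.35). It was −0.15 without heart 7, and 0.043 with an adjusted p of 0.90 (edgeR) without hearts 7 and 11, so that its direction rests on these hearts.

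**Figure D4:**
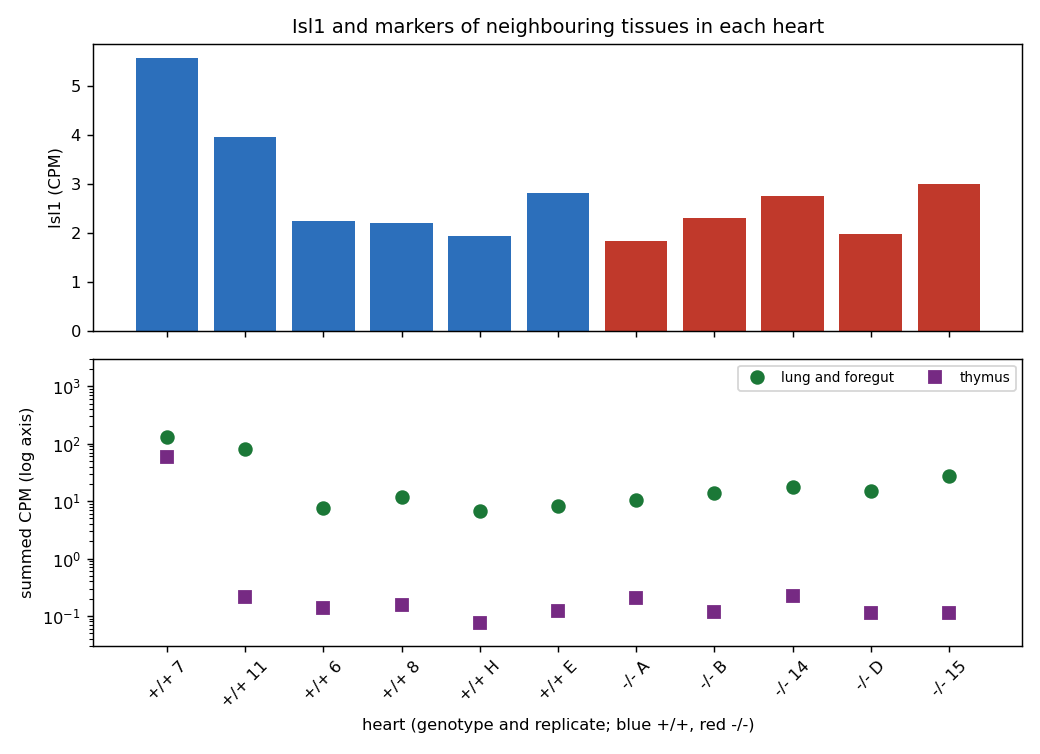
Upper panel, Isl1 in CPM in each heart (bars from 0, wild-type in blue and knockout in red); lower panel, summed CPM of lung and foregut and of thymus markers in the same hearts on a log axis. Wild-type hearts 7 and 11 have the highest Isl1, 5.58 and 3.97 CPM, and the highest sums of the lung and foregut list, 130 and 82.0 CPM. In heart 7 that sum is almost wholly Krt8, Cdh1 and Epcam.

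To compare levels between genes, CPM was divided by the length of each gene's annotated exons. In wild-type hearts Nkx2-5 had 79.8 ± 6.82 and Gata4 70.3 ± 5.69 CPM per kilobase, with ranges that overlapped, followed by Tbx20 at 45.8 ± 4.43 and Hand2 at 43.3 ± 4.48, which also overlapped. Gata6 had 30.2 ± 1.85 and Tbx5 12.9 ± 1.56 CPM per kilobase, each apart from its neighbours in the order. Mef2c had 9.12 ± 0.698, Hand1 8.32 ± 1.97 and Gata5 5.59 ± 1.32, and each overlapped the next. Isl1 had 0.789 ± 0.355 CPM per kilobase and lay below all others. In knockout hearts the order was the same except at the top, where Gata4 had 68.3 ± 1.53 and Nkx2-5 66.0 ± 2.25 CPM per kilobase. With the longest transcript as the length, Gata6 and Hand2 changed places, as did Mef2c and Tbx5, and Mef2c, whose exons add up to 15715 bases over 31 transcripts, moved to 22.8 CPM per kilobase.

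The genes on the other strand whose start lies within 5000 bases of a member's start were compared in the same fit, and none passed. Gata5os, next to Gata5, had a log2 fold change of 0.33 (edgeR, adjusted p = 0.42) at 119 counts in all. The values were 0.012 for 1010001N08Rik next to Gata6 (edgeR, adjusted p = 0.95), −0.35 for Gm43050 next to Tbx5 (edgeR, adjusted p = 0.14) and 0.084 for Gm29824 next to Tbx20 (edgeR, adjusted p = 0.83). Gm43050 was thus below its wild-type level where Tbx5 was above it, and with the naming style as a covariate it passed, at −0.45 and an adjusted p of 0.039 in edgeR's test. Reads on the opposite strand came to 0.75% to 1.74% of the reads on both strands of a member.

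Over the 11 hearts, the gene whose profile of log2 CPM, centred on its own mean, lay nearest to that of each member was found among 14014 genes at a mean of 1 CPM or more. The mean absolute difference per heart was 0.047 between Nkx2-5 and Klhl30 and 0.027 between Gata4 and Coq6. It was 0.029 between Gata6 and Dnajc18, 0.035 between Mef2c and Ktn1, 0.046 between Tbx20 and Mto1, and 0.061 between Tbx5 and Ikzf4. Hand2 lay 0.070 from Pctp, Hand1 0.085 from D930036K23Rik, Gata5 0.12 from Slc16a12 and Isl1 0.19 from Zcchc18. Among the members themselves, Gata6 and Mef2c were closest, at 0.059, followed by Gata4 and Tbx20, at 0.070. All points share the 11 libraries, and these are descriptions.

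Relatives of the members were taken as a list of 19 genes of the same protein families, of which 18 were tested (Nkx2-6 had too few counts). 3 were higher, 2 were lower and 13 did not pass, with a median log2 fold change of −0.024. Tbx2, the repressor that keeps chamber genes off in the atrioventricular canal, was at 11.7 ± 1.71 CPM in knockout and 17.3 ± 2.74 in wild-type hearts, with no overlap (log2 fold change −0.56, edgeR, adjusted p = 0.0105). Tbx18, a factor of epicardium and sinus horn, had a log2 fold change of −0.31 (edgeR, adjusted p = 0.0466), which passed in 4 of the 11 fits without 1 heart, and Tbx3 one of −0.17 (adjusted p = 0.40). Among the T-box related genes Mga rose by 0.25 on the log2 scale (edgeR, adjusted p = 0.0381), and passed in 4 of these fits. Tcf21, a helix-loop-helix factor of epicardium and fibroblasts, rose by 0.30 (edgeR, adjusted p = 0.0164). Without wild-type hearts 7 and 11, 1 relative was higher, Gata1, and 1 was lower, Tbx2, while Tbx18 (−0.33), Mga (0.26) and Tcf21 (0.25) did not pass (edgeR, adjusted p = 0.078, 0.082 and 0.072). After scaling to the cardiomyocyte list Tbx2 had −0.42 and Tbx18 −0.17 and neither passed (edgeR, adjusted p = 0.085 and 0.38).

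Among the other GATA factors, Gata1, the erythroid factor, was at 11.3 ± 2.78 CPM in knockout and 1.03 ± 0.553 CPM in wild-type hearts (log2 fold change 3.45, edgeR, adjusted p = 3.1e-05). The erythroid markers given above were higher in the same hearts, and their part in it was not tested. Gata2 and Gata3 had log2 fold changes of 0.066 and 0.14 (edgeR, adjusted p = 0.58 and 0.76). Of the MEF2 genes, Mef2a had 0.17 and Mef2d 0.094 (edgeR, adjusted p = 0.18 and 0.49), and both passed after scaling to the cardiomyocyte list, at 0.33 and 0.25.

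Cofactors and other regulators of heart development made up a list of 50 genes, all tested, of which 3 were higher, 5 were lower and 42 did not pass, with a median of −0.0067. Zfpm1 (FOG1), the GATA cofactor best known from red cells and platelets and also expressed in endocardium, was at 94.3 ± 9.57 CPM in knockout and 67.9 ± 4.52 in wild-type hearts (log2 fold change 0.47, edgeR, adjusted p = 7.9e-04). Zfpm2 (FOG2), the GATA4 cofactor of the myocardium, had a log2 fold change of 0.16 (edgeR, adjusted p = 0.25). Nfatc1, a factor of endocardium and valves, rose by 0.34 and Irx5 by 0.45 (edgeR, adjusted p = 0.0189 and 0.036), beside the higher endothelial and erythroid marker sums, whose part in these values was not tested. Smarcd3, the BAF60C subunit through which chromatin remodelling reaches cardiac genes, was at 73.1 ± 6.6 CPM in knockout and 99.5 ± 8.56 CPM in wild-type hearts, with no overlap (log2 fold change −0.44, edgeR, adjusted p = 0.0018). Nr2f1, an atrial nuclear receptor, had −0.77, Heyl −0.45, Mrtfa, a coactivator of SRF, −0.26, and Smyd1, a muscle methyltransferase, −0.22 (edgeR, adjusted p = 0.0133, 0.013, 0.0159 and 0.0273). Irx5 passed in 5 and Smyd1 in 7 of the 11 fits without 1 heart. After scaling to the cardiomyocyte list Mrtfa (−0.11), Smyd1 (−0.065) and Heyl (−0.29) did not pass (edgeR, adjusted p = 0.50, 0.51 and 0.069). Without wild-type hearts 7 and 11, 1 gene of this list was higher, Zfpm1, and 4 were lower, while Irx5 (0.40), Nfatc1 (0.30) and Mrtfa (−0.23) did not pass (edgeR, adjusted p = 0.089, 0.062 and 0.066).

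Genes commonly given as targets of the core factors made up a list of 30, all tested and 16 of them also among the cardiomyocyte markers. 3 were higher, 4 were lower and 23 did not pass, with a median of −0.11. Bmp10, a growth factor of trabecular and atrial myocardium, was at 395 ± 152 CPM in knockout and 107 ± 32.3 in wild-type hearts, with no overlap (log2 fold change 1.88, edgeR, adjusted p = 5.3e-04). Nppa, the atrial natriuretic peptide, was at 2746 ± 563 and 1501 ± 396 CPM (log2 fold change 0.87, edgeR, adjusted p = 0.01). Gja1, connexin 43, rose by 0.47 (edgeR, adjusted p = 0.0204), but without wild-type hearts 7 and 11 it had 0.39 and did not pass (edgeR, adjusted p = 0.072). Then 2 targets were higher and 5 were lower. The 4 lower genes with all hearts were Ttn (−0.51), Tnnc1 (−0.48), Myl4 (−0.45) and Xirp1 (−0.37), with adjusted p from 0.0021 to 0.0119 in edgeR's test. All 4 of them are also on the cardiomyocyte list, whose sums are given above. The share that passed was 27.8% of the relatives, 16.0% of the cofactors and 23.3% of the targets, beside 14.6% of all genes. That last share includes genes of low count, and it depends on the filter. With the stricter count filter filterByExpr 16853 genes were tested, of which 2324 were higher and 1884 lower.

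**Figure D5:**
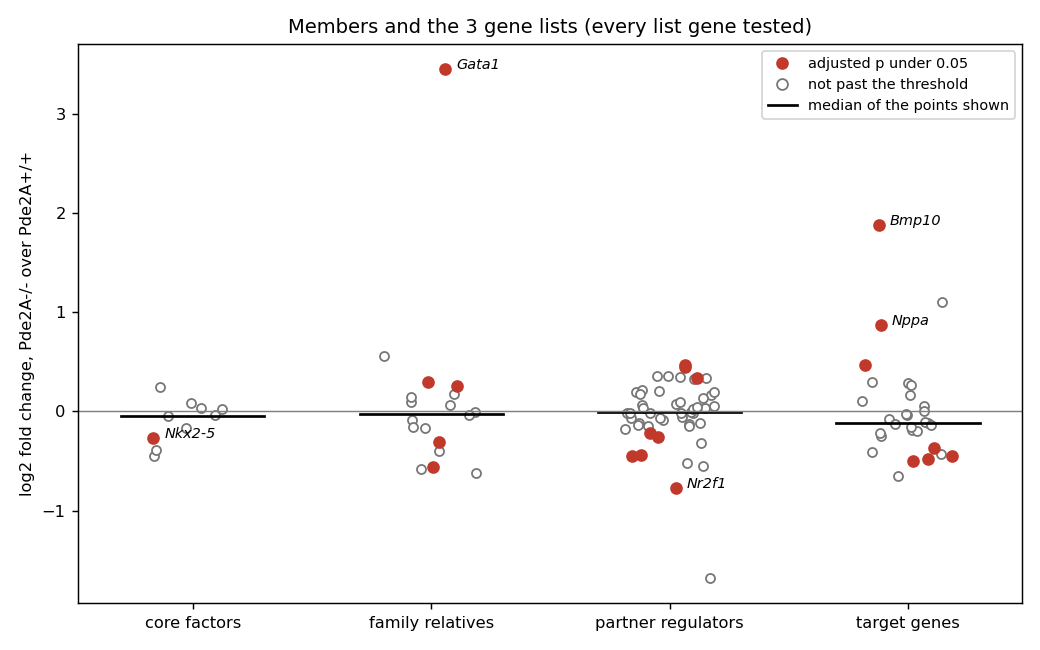
Log2 fold change (Pde2A-/- over Pde2A+/+) of the 10 core factors and of the genes tested in the lists of family relatives, partner regulators and target genes; filled red points passed at an adjusted p under 0.05, open points did not, and the line is the median. The core factors lie between −0.45 and 0.25, while Gata1 (3.45) and Bmp10 (1.88) lie farthest from 0 among the genes that passed.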

How the data were processed

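Total RNA of each heart was made into stranded mRNA libraries (NEBNext Ultra II) and sequenced in single-end mode on a NextSeq instrument. Mapping by the authors was to GRCm38 (mm10) with STAR, whose version is not given in the sources used here, and they deposited for each heart the counts per gene as whole numbers, without normalization: without regard to strand, and on either strand. The column that holds the gene's own strand was used. STAR leaves out reads that map to several places or lie on more than 1 gene. The reads assigned to no gene, with these among them, came to 19.6% to 22.4% of the reads of a heart.

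Identifiers were named from GENCODE M21 on the same build. Genes with 10 or more counts in all were kept, libraries were normalized by TMM, and the genotypes were compared without covariates by edgeR 4.0.16 (R 4.3.3), with Benjamini-Hochberg adjustment over 24177 genes. CPM are counts after TMM, scaled to library size, fold changes are edgeR's fitted values, and each SE was taken from the fold change and its F statistic. The log2 CPM used for the nearest profiles had a prior count of 2. The common biological coefficient of variation was 16.8%. It is 1 value over all genes and does not describe single members. Their coefficients of variation in knockout hearts ran from 2.23% (Gata4) to 26.6% (Hand1). Counting error weighs most on Isl1 and the other low genes. Pairs of hearts of 1 genotype had Pearson correlations of 0.992 to 0.998 across genes, which are themselves no replicates. The fits were tested on simulated data. There edgeR stayed under the limit set on false calls and DESeq2 did not, after which the limit was kept for edgeR alone, so counts from DESeq2 are given as an alternative only.

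The members and the lists were chosen with earlier results of these data known. Named were all members, the genes of each list that passed with a mean of at least 1 CPM (up to 8), relatives of the members in the T-box, GATA and MEF2 families and the Zfpm cofactors at that level, the nearest profile of each member, and the opposite-strand neighbours. The alternatives were DESeq2 1.42.0, its size factors, filterByExpr, no count filter, reads of both strands, the naming style of the replicates, scaling to the cardiomyocyte list, red cell genes left out, and each heart left out in turn. Leaving out wild-type hearts 7 and 11 together and the ratios to Nkx2-5 were added after the data had been seen. Drug-treated embryos and RT-qPCR are not analysed here.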

Additional observations from a re-analysis of the deposited data

Results flagged for a closer look

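In 100 sets of values (a gene or a summed marker list in 1 genotype), the heart farthest from the others was compared with them by the gap to the nearest heart over the whole range, and 5 were set apart; chance does this in about 1 of 20. None of them was a member. Tcf21 was at 39.0 CPM in wild-type heart 8, against 28.7 to 31.4 in the other wild-type hearts, and Nfatc1 at 64.6 CPM in knockout heart B, against 51.0 to 53.6 in the other knockout hearts. The summed liver markers were 44.6 CPM in knockout heart D, against 4.77 to 7.52, and 118.5 CPM in wild-type heart E, against 3.64 to 46.6. The summed thymus markers were 58.7 CPM in wild-type heart 7, against 0.0746 to 0.217. The list genes that passed and the marker sums were added to this search after it had found nothing among the members and their neighbours.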

How the results depend on the processing

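No paired analysis was possible because the genotypes share no replicate names. Of 820 comparisons of a single named gene's log2 fold change with its value under an alternative, 747 kept the direction and the side of the threshold, 42 lost the call, 7 gained it and 24 turned in sign, all 24 in genes that had not passed. Nkx2-5 passed in all 11 fits without 1 heart (−0.30 to −0.24, adjusted p 0.0065 to 0.033) and lost the call under the scaling to the cardiomyocyte list, which shifts the library factors by construction. Under that scaling the members came to 1 higher and 0 lower, the relatives to 5 and 0, the partner regulators to 8 and 2 and the targets to 8 higher, while Gata4 turned to 0.11, Tbx20 to 0.12 and Hand2os1 to 0.14. With the naming style as a covariate 1 member was higher, 1 relative lower, and 5 targets were higher and 8 lower, and 1010001N08Rik turned to −0.035. DESeq2, which exceeded the limit on false calls in the simulated test, called 5 partner regulators higher and 8 targets lower. Without wild-type hearts 7 and 11, 1 relative was higher and 1 lower, 1 partner regulator was higher, and Gata5 turned to −0.013, Gata6 to −0.0025, Isl1 to 0.043, 1010001N08Rik to −0.0083 and Gm29824 to −0.053.

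Leaving out 1 heart gave 0 members higher in every fit and 1 to 2 lower, with 2 without knockout heart A. The relatives ranged from 1 to 3 higher, with 1 without knockout heart 14, and from 1 to 2 lower, with 1 without any of knockout hearts 14, D and 15 or wild-type hearts 6, 7, 8 and 11. The partner regulators ranged from 2 to 5 higher, with 5 without knockout heart B, and from 4 to 7 lower, and the targets from 2 to 4 higher and from 4 to 8 lower, with 8 without knockout heart B. Calls were lost without these hearts: Tbx18 without knockout hearts 14, D and 15 and wild-type hearts 6, 7, 8 and 11, Mga without the same but E in place of 11, Irx5 without knockout hearts A, B and D and wild-type hearts 7, 8 and H, Smyd1 without knockout hearts 14, D and 15 and wild-type heart 6, Tcf21 without knockout heart 14, and Gja1 without knockout heart D, each left out alone. In these fits Gata5 ranged from −0.062 to 0.17, Gata6 from −0.014 to 0.062, Tbx20 from −0.085 to 0.00040, 1010001N08Rik from −0.049 to 0.054, Hand2os1 from −0.062 to 0.045 and Gm29824 from −0.021 to 0.18. Where no construction of the alternative shows it, the cause was not tested. Depth limits the low genes Isl1 (70 to 214 counts per heart), Gm29824 (405 counts in all) and Gata5os (119 counts in all).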
